A study of Arabidopsis thaliana with 27 samples.

Results

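The genes described here encode proteins of the cytosolic ribosome of Arabidopsis thaliana, the particle that translates nuclear messenger RNA. They were taken from a list of 60 loci, 49 of the small subunit and 11 of the large subunit. A probe set, the group of short probes that reads a transcript on the array, was used if it mapped to listed loci and to no gene outside the list, and the brightest was to be kept per locus. 36 of the 22746 non-control probe sets on the array met this rule. They read 41 of the 60 loci (35 of the small and 6 of the large subunit), out of 14349 genes named for the array. No measured locus had more than 1 probe set, so no choice by brightness was made.

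The small subunit binds messenger RNA and checks the match of each transfer RNA to its codon, and the large subunit joins the amino acids and lets the growing chain leave through a tunnel. A plant ribosome holds 1 copy of most of its proteins, and in Arabidopsis nearly every one of them is encoded by a small family of very similar genes. Messenger RNAs of ribosomal proteins are among the most abundant in growing cells, and mutations in several of these genes are known to stop embryo development or to give narrow, pointed leaves.

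RNA from laser-dissected tissues of embryos of the accession Col-0 (stock N1092), grown in compost in a growth room, was labelled with biotin and hybridised to 27 Affymetrix ATH1 arrays. All groups share this wild-type genotype and carry no treatment. At the globular stage the captures were an apical and a basal part, at the heart stage a cotyledon and a root pole, and at the torpedo stage a cotyledon, a root, an apical part, a basal part and meristem tissue. 7 of these 9 groups hold 3 arrays, and torpedo cotyledon and torpedo root hold 2 each, since 2 further arrays carry a title and a tissue description that name opposite tissues. Globular apical 1 has a growth description that differs from the others in humidity and adds a cold treatment of the seed. No label says which plants or embryos a capture came from or how regions were outlined, so p-values measure the spread between arrays, which may be technical. In such bulk captures fewer cells of a type and less RNA per cell cannot be told apart.

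The deposited values are MAS5 intensities on a linear scale, per the submitters' processing notes. For the 36 probe sets they have at most 1 decimal on the globular, heart, torpedo cotyledon and torpedo root arrays. On the torpedo apical, basal and meristem arrays they have more. A difference in handling between these sets of arrays cannot be told apart from stage where torpedo apical and basal arrays meet heart or globular ones. Differences below are of log2(intensity + 10), fitted with limma over all 25 grouped arrays and 20890 probe sets, and a probe set is said to pass when its Benjamini-Hochberg adjusted p is under 0.05. All 36 probe sets passed the filter on low values. 31 of them read 1 locus and 5 read a pair of loci that the array cannot separate: AT2G31610 and AT3G53870 (S3), AT2G09990 and AT5G18380 (S16), AT3G45030 and AT5G62300 (S20), AT3G09680 and AT5G02960 (S23), and the neighbours AT1G74050 and AT1G74060 (L6). Of the other 19 loci, 18 have no probe set named in the table used here, and the probe set of S17 AT5G04800 also maps outside the list. The tables used here give most measured loci only a locus code, so the family names (S for small, L for large subunit) follow common Arabidopsis nomenclature. No sequences are printed, because sequences were not used here.

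4 arrays stood apart in their correlation with the rest: the median Pearson correlation over all probe sets was 0.365 for heart cotyledon 2, 0.364 for torpedo root 1, 0.295 for torpedo root 3 and 0.369 for torpedo meristem 1, against 0.454 to 0.626 for the other grouped arrays. 18 probe sets for hybridization controls read RNA added at a fixed amount, and their geometric mean was lowest on torpedo apical 5 (383) and highest on torpedo root 3 (71932). The log2 ratio of the 3′ to the 5′ actin probe set, a measure of RNA integrity and labelling, was 2.39 to 5.07 on the torpedo apical and basal arrays, -1.75 to 0.51 on the globular arrays and -1.80 to 1.85 on the heart arrays. It was 2.58 on torpedo meristem 2 and -1.55 to 1.80 on the other torpedo arrays. The actin ratio was thus high in the torpedo apical and basal captures rather than at the torpedo stage as a whole. The same ratio for GAPDH did not set these captures apart. It was 5.47 to 7.62 on the torpedo apical and basal, 4.91 to 6.91 on the globular and 5.16 to 8.02 on the heart arrays. Torpedo root 1 had the lowest GAPDH ratio (-2.61). The part of either ratio in the comparisons with these captures was not tested.

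The ribosomal protein probe sets lay high in the signals of nearly every array, where a signal also depends on the probes and is not a transcript level. On 22 of the 25 arrays their median lay between the 97.3 and the 99.1 percentile of the array, at intensities from 557.6 to 3262. Of their 900 values, 57.7% reached an intensity of 1000, which 2.38% of all values did. The 3 exceptions were heart cotyledon 2, with a median at the 51.1 percentile (intensity 78.8), torpedo root 1, at the 50.8 percentile (intensity 70.0), and torpedo meristem 1, at the 91.3 percentile (intensity 281). Each of these arrays has sister arrays of the same tissue on which the median was at the 97.3 percentile or above. In intensity, torpedo root 3, the other torpedo root array, had the lowest member median of the 22 (557.6).

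**Figure D1:**
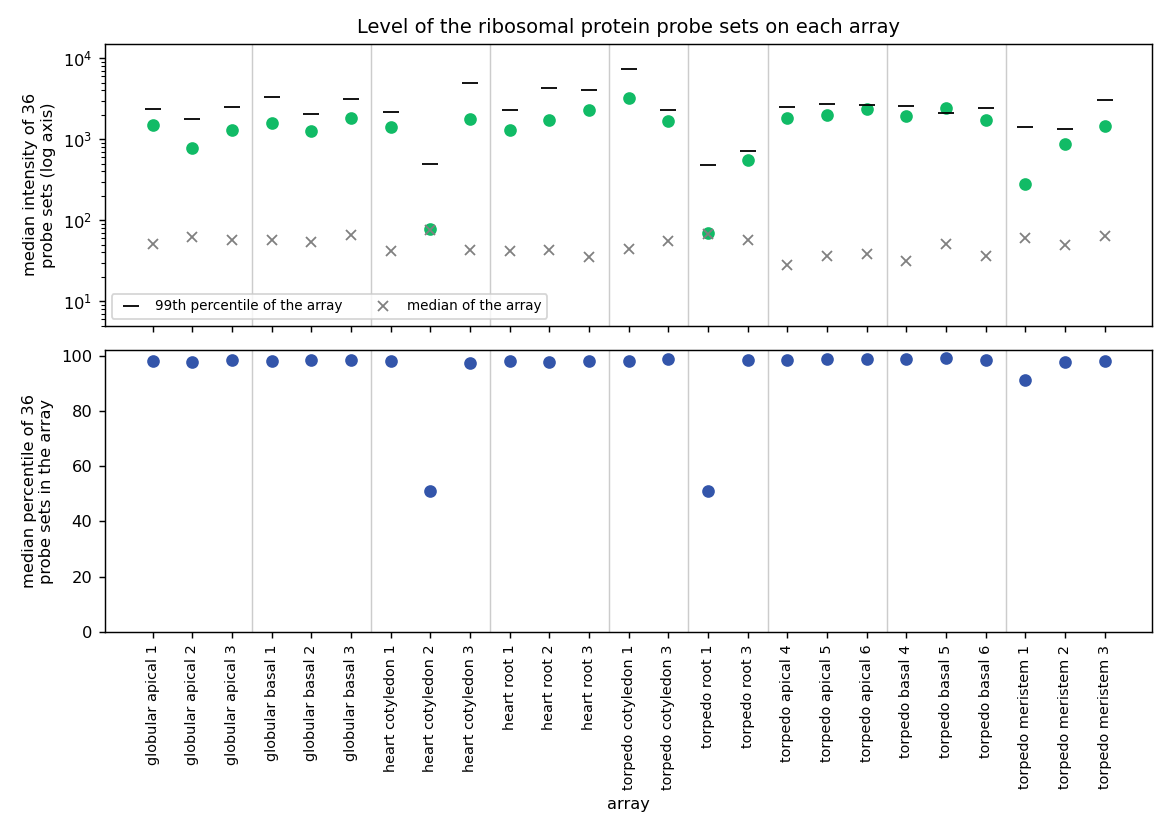
The upper plot gives the median intensity of the 36 ribosomal protein probe sets on each of 25 arrays (green points, log axis) beside the array's own 99th percentile (black bars) and median (grey crosses), and the lower plot gives their median percentile. On heart cotyledon 2 and torpedo root 1 the green point falls on the array's median, and on torpedo meristem 1 it lies between the array's median and its 99th percentile.

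The torpedo root arrays were low in different ways. On torpedo root 3 the probe sets kept a median percentile of 98.5 while their median intensity was 558, and the array's own bright end was low as well: its 99th percentile was 719, against 1351 to 7358 on the arrays other than heart cotyledon 2 (491) and torpedo root 1 (483). On torpedo root 1, 30 of the 36 probe sets held 1 of their 3 lowest values, and on heart cotyledon 2 this was so for 27. The same was not counted over all probe sets, so it cannot set the members apart from the rest. Single members departed from the low values: on heart cotyledon 2, S24 AT3G04920 reached 6716, the highest of its 25 values, and L29 AT3G06700 reached 6836. Across arrays of 1 group the members spread more than most probe sets: their within-group SD had a median of 1.42 on the log2 scale against 0.98 for all tested, and 34 of 36 lay above the latter.

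**Figure D2:**
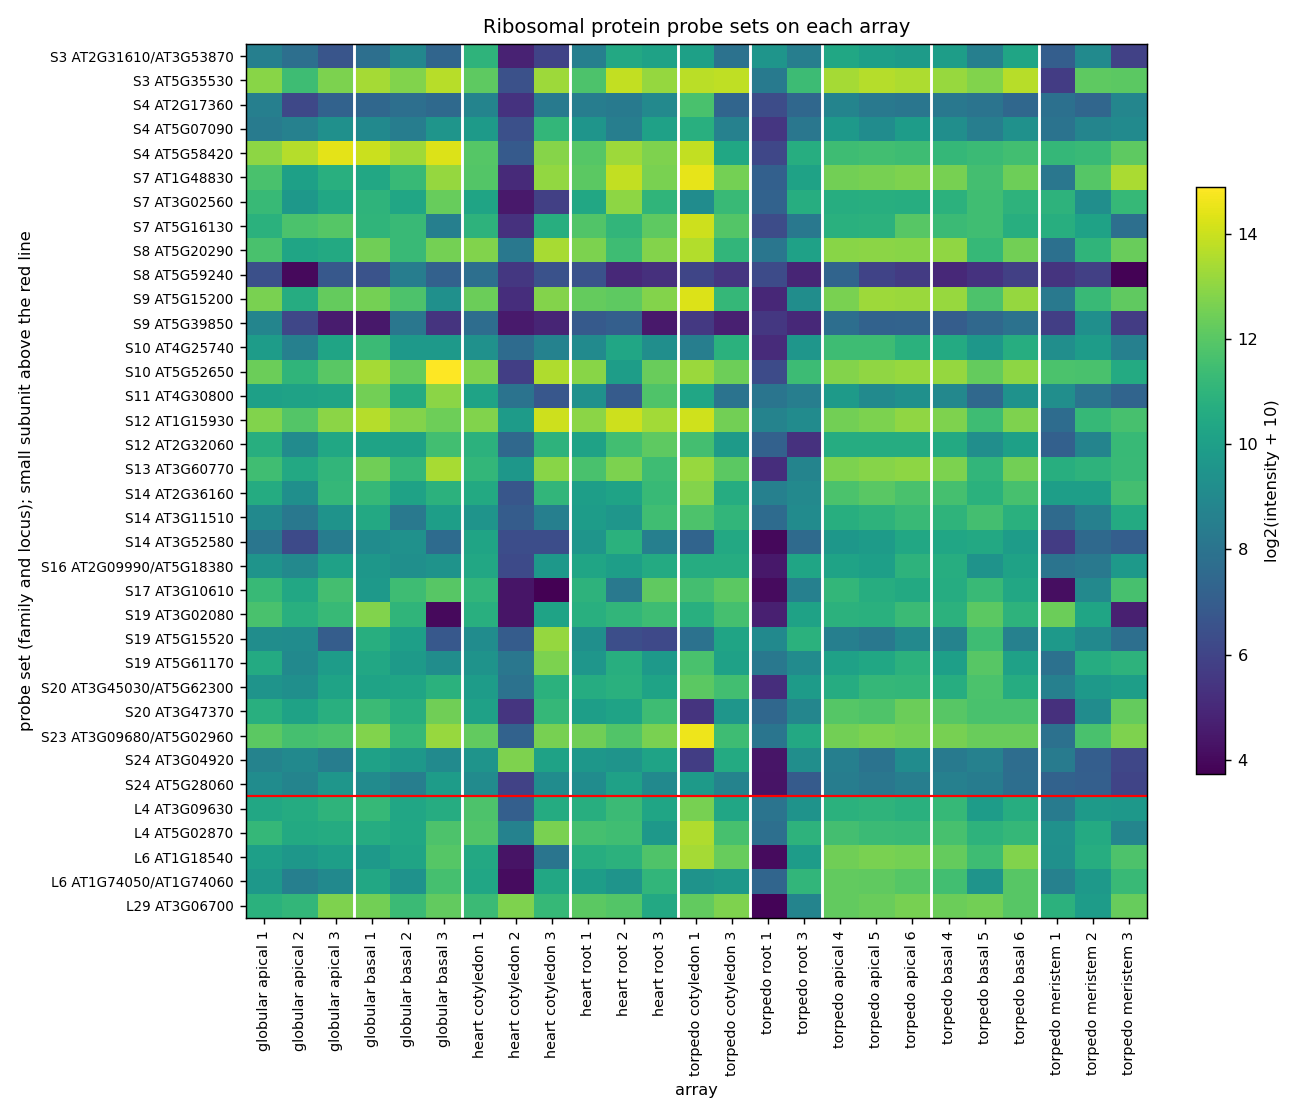
Each row is a ribosomal protein probe set and each column an array, grouped by tissue between white lines; colour gives log2(intensity + 10), and the red line divides small subunit (above) from large subunit (below). The dark columns are heart cotyledon 2, torpedo root 1 and, in part, torpedo meristem 1, while the torpedo apical and basal columns are even and bright.

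Intensities of different probe sets depend on their probes, so the levels that follow are set only against the same probe set on other arrays. Among the small subunit proteins that line the path of messenger RNA, S3 stands at the entry of the channel. The probe set of S3 AT5G35530 ranged from 42.1 to 14717 (median 7564) over the 25 arrays. The S3 probe set shared by AT2G31610 and AT3G53870 ranged from 18.1 to 1998 (median 364). S9 also lies at the entry: S9 AT5G15200 ranged from 21.6 to 19829.7 (median 4899.9), and S9 AT5G39850 from 11.5 to 617 (median 58.1). Single arrays of the same tissue differed widely for the latter, for example 438, 58.1 and 13.9 on the globular apical arrays.

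S23 sits at the decoding centre, where codon and anticodon meet, and its probe set shared by AT3G09680 and AT5G02960 ranged from 139 to 24827 (median 5079). S14 forms part of the platform near the exit of the messenger RNA. Its 3 probe sets ranged from 93.8 to 7174 (median 1830.1) for AT2G36160, from 114 to 3498 (median 932) for AT3G11510 and from 5.5 to 1817 (median 363) for AT3G52580. S16 reaches the transfer RNA in the peptidyl site with its tail, and its shared probe set (AT2G09990 and AT5G18380) ranged from 11.9 to 1978 (median 1003).

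Proteins of the head and beak of the small subunit include S10, S12, S19 and S20. S10 AT5G52650 ranged from 46.2 to 30237 (median 5280.5), and its highest value came from globular basal 3. S10 AT4G25740 ranged from 24.3 to 2754 (median 847). S12 AT1G15930 ranged from 194 to 17229.9 (median 6738), and S12 AT2G32060 from 30.3 to 4474 (median 1310.3). Loss of S19 in human blood precursors causes Diamond-Blackfan anaemia, with a defect in maturing small-subunit rRNA. S19 AT3G02080 ranged from 6 to 7046 (median 1868), S19 AT5G15520 from 62.6 to 8897 (median 509) and S19 AT5G61170 from 228 to 6469 (median 1081). S19 AT5G61170 had the smallest SD of its 9 group means of all members, 0.66 on the log2 scale. The S20 probe set shared by AT3G45030 and AT5G62300 ranged from 26.2 to 4238 (median 1245), and S20 AT3G47370 from 28.9 to 5587 (median 1725).

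S7, S17 and S24 are, like S19, needed in human cells for small-subunit rRNA maturation. S7 AT1G48830 ranged from 22.9 to 22436 (median 4236), S7 AT3G02560 from 12.5 to 8092 (median 1630.4) and S7 AT5G16130 from 29.2 to 16684 (median 1926). S17 AT3G10610 ranged from 3.2 to 4571 (median 1630.3) and had the largest SD of group means of all 36, 2.11 on the log2 scale. Its 2 lowest values came from heart cotyledon 3 (3.2) and torpedo root 1 (6.7). S24 AT3G04920 ranged from 10.4 to 6716 (median 511) and S24 AT5G28060 from 9.6 to 1088 (median 368).

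The remaining small subunit families were S4, S8, S11 and S13. S4 AT5G58420 ranged from 58.6 to 21761 (median 3911), S4 AT5G07090 from 35.2 to 2224 (median 532) and S4 AT2G17360 from 31.1 to 3237 (median 247). S8 AT5G20290 ranged from 219.9 to 12481 (median 5179.6). S8 AT5G59240 ranged from 3.7 to 341 (median 47.6). S8 AT5G59240 and S4 AT2G17360 also had the next smallest SDs of group means, 0.73 and 0.79, after S19 AT5G61170. S11 AT4G30800 ranged from 97.5 to 7864 (median 625) and S13 AT3G60770 from 26.5 to 10928 (median 2801).

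Of the large subunit, L4 lines the tunnel through which the new protein leaves. L4 AT3G09630 ranged from 128 to 6222 (median 1537) and L4 AT5G02870 from 212 to 12077 (median 2255). L6 AT1G18540 ranged from 6.8 to 10768 (median 1633) and had an SD of group means of 2.06, the second largest. The L6 probe set shared by AT1G74050 and AT1G74060 ranged from 7.1 to 4680.0 (median 957). L29 AT3G06700 ranged from 4.1 to 6843 (median 4287), with an SD of group means of 1.92. Its lowest value by far came from torpedo root 1, and the next lowest was 424 on torpedo root 3.

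Over the 9 groups together, the limma F test called none of the 36 members, against 1.25% of all probe sets (262 of 20890). At an unadjusted p under 0.05 the count was 12 of 36, against 22.2% of all. The smallest adjusted p among members were 0.0972 for L6 AT1G18540, 0.104 for S24 AT5G28060 and 0.115 for S14 AT3G52580. With array weights 5 members passed, beside 18.1% of all probe sets, and without an intensity trend 2 did, beside 1.26%. Without heart cotyledon 1, 4 members passed, beside 2.77% of all. Without heart cotyledon 2 or torpedo root 3, 1 member passed, beside 2.06% and 0.922%. In each pairwise comparison as well, 0 of 36 members passed.

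**Figure D3:**
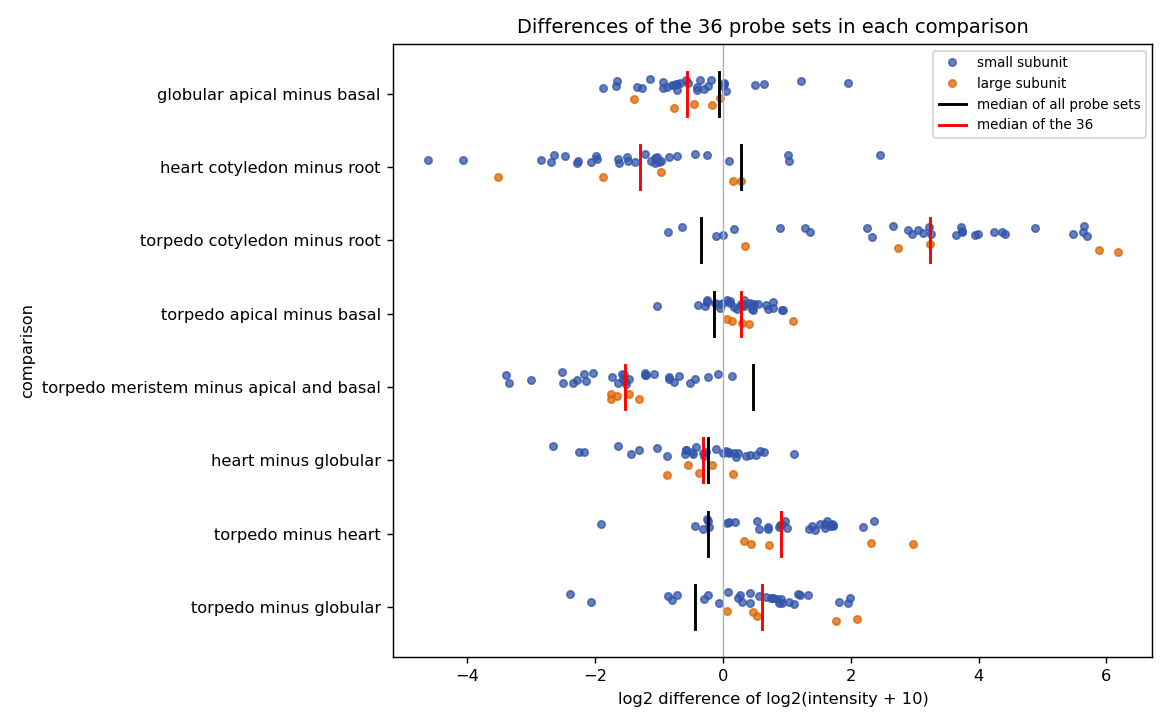
Each point is a ribosomal protein probe set, blue for the small and orange for the large subunit, and the horizontal axis gives its log2 difference in the comparison named on the left. Red bars mark the median of the 36 and black bars the median of all probe sets tested; the red bar lies furthest right for torpedo cotyledon against root (3.23) and furthest left for meristem against the apical and basal parts (-1.54).

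In the globular embryo, the apical part gives rise to most of the shoot and cotyledons and the basal part to the root pole. Ribosomal protein signals were lower in the apical part for 28 of 36 probe sets and higher for 8, with a median log2 difference of -0.56, beside -0.06 for all probe sets. By limma, none of the 36 passed, as 0% of all probe sets did, and 1 member was under an unadjusted p of 0.05 against 2.69% of all. Groups did not overlap for 3 members, all lower in the apical part, beside 5.1% of all probe sets that were lower without overlap, and no member was higher without overlap (3.64% of all). The median was -0.78 to -0.28 when any single array was left out.

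S11 AT4G30800 differed most. It read 1066, 1122 and 1186 on the apical arrays and 5851, 1539 and 7864 on the basal arrays. The apical arrays lay close together and below all the basal ones, which spread widely. Its log2 difference was -1.87 (SE 1.09, adjusted p = 1.00). The shared S20 probe set (AT3G45030 and AT5G62300) read 710.2, 612 and 1167 against 1179.8, 1245 and 1823, with a log2 difference of -0.79. S24 AT3G04920 read 415, 511 and 339 against 1081, 819 and 523, with a log2 difference of -0.88. In these as well the ranges did not overlap, though the gap was small.

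S10 AT5G52650 was at -1.68 (SE 1.65, adjusted p = 1.00). Globular basal 3, at 30237, was far above the others: the apical arrays read 5280.5, 2086 and 4190 and the other basal arrays 10497 and 4790.1, so the groups overlapped. S8 AT5G59240 was at -1.66 (SE 0.80, adjusted p = 1.00), from 78.4, 6.1 and 99.9 against 84.6, 341 and 137, again with overlap. At the other end, S19 AT3G02080 was at 1.96 (SE 1.88, adjusted p = 1.00). It read 3234, 1753 and 2379 on the apical arrays and 7046, 2061 and 6 on the basal arrays. The basal value of 6 sets the sign, since the mean intensity was higher in the basal part. S7 AT5G16130 and S9 AT5G15200 followed with 1.22 and 0.64, and in both the lowest basal value was again on globular basal 3 (368 and 628).

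In the heart embryo the cotyledon pole was compared with the root pole. 30 of 36 members had lower values at the cotyledon pole, with a median log2 difference of -1.30 beside 0.29 for all probe sets. Without heart cotyledon 2, the array on which most members were low, the median was -0.12. None of the members passed in limma (0.00957% of all probe sets did), and 6 were under an unadjusted p of 0.05 against 5.32% of all. 4 members were lower without overlap, beside 1.98% of all, and none was higher without overlap, beside 5.59%.

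S7 AT3G02560 had the lowest difference, -4.62 (SE 1.23, adjusted p = 0.388). It read 1217, 12.5 and 47.1 on the cotyledon arrays and 1363, 8092 and 2081 on the root arrays. 2 of the cotyledon arrays were very low, and the highest of them lay just under the lowest root value. Without heart cotyledon 1 it passed, at -6.32 with an adjusted p of 0.0228, in a fit that called 0.239% of all probe sets, and it passed in no other setting. S17 AT3G10610 was at -4.06 (SE 1.63, adjusted p = 0.807), from 2123, 10.3 and 3.2 against 1943, 289 and 4571. Here a cotyledon array lay above 2 root arrays, so the groups overlapped.

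L6 AT1G18540 was at -3.52 (SE 1.35, adjusted p = 0.761), from 1397, 10 and 255 against 1632, 1872 and 3612, without overlap. S7 AT5G16130 (1926, 29.2 and 1692 against 3701, 2118 and 4400.3) was also lower on all cotyledon arrays. The same held for S14 AT3G11510 (707, 114 and 365 against 932, 769.5 and 2821). In these and S7 AT3G02560, the 4 members without overlap, heart cotyledon 2 held the lowest value of the 6 arrays. In the opposite direction S19 AT5G15520 was at 2.46 (SE 1.28, adjusted p = 0.968). It read 561, 117 and 8897 against 606, 75.9 and 62.6, and heart cotyledon 3 was far brighter than any other heart array. S8 AT5G59240 (1.03, from dim signals of 22.5 to 209.5) and S24 AT3G04920 (1.02) were the others with the highest differences. For S24 AT3G04920 this rests on heart cotyledon 2, at 6716, against 722 and 1127 on the other cotyledon arrays and 792, 716 and 1153 on the root arrays.

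The torpedo cotyledon and root captures gave the widest differences of any comparison. 32 of 36 members had higher values in the cotyledon arrays, with a median log2 difference of 3.23 beside -0.35 for all probe sets. By limma none passed (0.00957% of all did), while 21 were under an unadjusted p of 0.05 against 11.7% of all. 23 members were higher without overlap, beside 10.4% of all, and none was lower without overlap, beside 25.6%. Each group has 2 arrays, and both root arrays are among the 4 that stood apart. Without torpedo root 1 the median was 1.85, and without torpedo root 3 it was 4.56. Ranked within each array, 30 members stood lower on torpedo root 1 than on both cotyledon arrays and 15 did so on torpedo root 3. These counts were not made over all probe sets, so they cannot say whether the members differ from the rest. The actin ratio was 1.80 and 1.08 on the cotyledon and -1.40 and -1.18 on the root arrays. The GAPDH ratio was 6.26 and 5.04 against -2.61 and 5.53. The part of these ratios in the difference was not tested.

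L29 AT3G06700 read 4693 and 6843 on the cotyledon arrays and 4.1 and 424 on the root arrays. Both root values lay far below both cotyledon values, and they also lay far from each other. Its log2 difference was 6.18 (SE 1.50, adjusted p = 0.121). L6 AT1G18540 read 10768 and 5071 against 6.8 and 933, at 5.88 (SE 1.65, adjusted p = 0.161). S7 AT5G16130 read 16684 and 3843 against 70.9 and 286, at 5.70 (SE 1.56, adjusted p = 0.156). In all of these torpedo root 1 was the lowest array. Without an intensity trend L29 AT3G06700 (adjusted p = 0.0380) and S13 AT3G60770 (adjusted p = 0.0489) passed in limma, beside 0.0239% of all probe sets. With the 2 further arrays added by title S7 AT5G16130 passed (adjusted p = 0.0358), beside 0.391%.

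The lowest differences came from S19 AT5G15520, at -0.86 (SE 1.57, adjusted p = 0.881), S20 AT3G47370, at -0.65, and S9 AT5G39850, at -0.12. S19 AT5G15520 read 234 and 1185 against 512 and 1842, and torpedo root 3 was the highest of the 4. S20 AT3G47370 read 32.7 and 764 against 166 and 448. For this member torpedo cotyledon 1 was the low array, on which 13 other members reached the highest of their 25 values. That count was not made over all probe sets.

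In the torpedo apical and basal parts the median intensity of the 36 probe sets lay between 1726 and 2416 on all 6 arrays. 27 of 36 members had higher values in the apical part, with a median log2 difference of 0.29 beside -0.14 for all probe sets. By limma none passed and none was under an unadjusted p of 0.05, beside 0.091% and 3.91% of all. 4 members were higher without overlap, beside 4.94% of all, and 1 was lower, beside 6.67%.

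S10 AT4G25740 read 2754, 2726 and 1813 on the apical arrays and 1501, 783 and 1633 on the basal arrays, at 0.94 (SE 1.01, adjusted p = 1.00). All apical values were higher. The shared L6 probe set (AT1G74050 and AT1G74060) was at 1.10 (SE 1.31, adjusted p = 1.00), from 4680.0, 4538 and 3934 against 2868, 715 and 4046. Torpedo basal 5 was far below the rest, and torpedo basal 6 reached into the apical range. S8 AT5G59240, dim at 22.4 to 149.5 on these arrays, was at 0.92. S12 AT2G32060, S13 AT3G60770 and S14 AT2G36160 were higher on all apical arrays, with log2 differences of 0.70, 0.78 and 0.45.

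S7 AT3G02560 was lower on all apical arrays: it read 1630.4, 1700.2 and 1629 against 1866, 2793 and 1976, at -0.39 (SE 1.23, adjusted p = 1.00). S19 AT5G15520 was at -1.03, from 366, 278 and 497 against 415, 2762 and 391, and only torpedo basal 5 lay clearly above the rest. S19 AT3G02080, at -0.28, was likewise highest on torpedo basal 5 (4309.8).

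Whether a pole difference changed from stage to stage was tested as a difference of differences. None of the 36 members passed in any of the 3 such tests in limma. Of all probe sets 0%, 0% and 0.00479% did, in the order heart against globular, torpedo apical and basal against heart, and torpedo against globular. At an unadjusted p under 0.05 there were, in the same order, 3, 2 and 1 members, beside 4.43%, 4.44% and 2.79% of all.

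The torpedo meristem captures were set against the mean of the apical and basal parts. 35 of 36 members had lower values in the meristem arrays, with a median log2 difference of -1.54 beside 0.47 for all probe sets. Without torpedo meristem 1 the median was -1.12. After quantile normalization it was -1.15, beside 0.10 for all probe sets. The 99th percentile of the meristem arrays was 1399.5, 1351 and 3011, against 2124 to 2718 on the apical and basal arrays. The bright end was thus low on meristem 1 and 2. The members' median percentile was 91.3, 97.9 and 98.2 on the meristem arrays, against 98.5 to 99.1. By limma none passed (0.168% of all did), and 6 were under an unadjusted p of 0.05, beside 20.6% of all. 8 members were lower without overlap, beside 2.5% of all, and none was higher without overlap, beside 4.82%. On torpedo meristem 1, 33 members lay below their own median over 25 arrays, on meristem 2 29 did and on meristem 3 20 did. These were not counted over all probe sets, so they cannot set the members apart from the rest. The actin ratio of these arrays, -1.55, 2.58 and -0.81, reached into the range of the apical and basal arrays only on meristem 2. Their GAPDH ratio was 7.71, 6.11 and 6.65, against 5.47 to 7.62 on the apical and basal arrays. The part of these ratios was not tested.

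S14 AT3G52580 came closest to passing. It read 42.3, 173 and 121 on the meristem arrays, against 789.8, 910.4 and 1376 on the apical and 1267, 1413 and 938 on the basal arrays. All meristem values lay below all others, with a wide gap. Its log2 difference was -3.35 (SE 0.93, adjusted p = 0.0999). It passed in limma with array weights (adjusted p = 0.0489, beside 2.74% of all probe sets), with only the groups compared in the fit (0.0341, beside 0.335%) and without torpedo basal 5 (0.0446, beside 6.78%). S3 AT5G35530 read 42.1, 4472 and 4303 in the meristem, against 10763, 12904 and 11635 and 9160.0, 6896 and 13109.8, at -3.39 (SE 1.48, adjusted p = 0.203). Its meristem 1 value was its lowest of 25, and the other meristem arrays also lay below every apical and basal array.

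S20 AT3G47370 was at -3.01 (SE 1.23, adjusted p = 0.183). Its meristem values of 28.9, 565 and 4841 spanned the apical and basal range of 3226 to 5275 from far below to within it. The other members without overlap were S10 AT5G52650 (-1.57), S14 AT3G11510 (-2.14), the shared S20 probe set (-1.55), S24 AT5G28060 (-1.53), L4 AT3G09630 (-1.46) and L4 AT5G02870 (-1.75). L4 AT3G09630 read 316, 889 and 800.0 in the meristem, against 1831, 1996 and 1809 and 2334, 951 and 1618. Only S4 AT5G58420 had a difference above 0 (0.13). S4 AT2G17360 and S19 AT5G15520 were nearest below, at -0.08 and -0.23.

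Between stages, the heart groups were compared with the globular groups. Members were split, 14 higher and 22 lower, with a median log2 difference of -0.30 beside -0.23 for all probe sets. Without heart cotyledon 2 the median was 0.38, and after centring each array on its median it was -0.02, so its sign depends on these choices. By limma none passed (0.0718% of all did), and 3 were under an unadjusted p of 0.05, beside 6.98% of all. No member had groups that did not overlap, beside 0.0814% of all for higher and 0.536% for lower. The lowest differences were those of S17 AT3G10610 (-2.65, adjusted p = 0.662), S11 AT4G30800 (-2.26) and S4 AT5G58420 (-2.17). The highest were those of S24 AT3G04920 (1.11), the shared S3 probe set (0.64) and S4 AT2G17360 (0.58).

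The torpedo apical and basal arrays were then compared with the heart arrays. 30 of 36 members had higher values on the torpedo apical and basal arrays, with a median log2 difference of 0.91 beside -0.24 for all probe sets. Without heart cotyledon 2 the median was 0.25. By limma none passed (1.26% of all did), and 7 were under an unadjusted p of 0.05, beside 19.9% of all. 1 member was higher and 1 lower without overlap, beside 0.977% and 1.82% of all. The markers of other seed tissues, described with the next comparison, had lower values on the torpedo apical and basal than on the heart arrays. AGL62 was at -1.63 (adjusted p = 0.105 in limma), DELTA-VPE at -1.25 (0.243) and BAN at -0.84 (0.447). The embryo gene BBM was at -0.55. AGL62 read 60.8 and 7.8 on the torpedo cotyledon, 78.2 and 103.5 on the root and 48.9, 8.97 and 76.5 on the meristem arrays. Its heart values were 12.7 to 180.2. The part of these markers in the difference of the ribosomal protein genes was not tested.

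L6 AT1G18540 had lowest, median and highest values of 10, 1515 and 3612 on the heart arrays and 2689, 5831 and 6968 on the torpedo arrays. The ranges overlapped through torpedo basal 5 and heart root 3. Its log2 difference was 2.98 (SE 0.95, adjusted p = 0.103). With array weights it passed, with an adjusted p of 0.0125 in limma, as did the shared L6 probe set (0.0498), S10 AT4G25740 (0.0400) and S24 AT3G04920 (0.0467), in a setting that called 11.9% of all probe sets. Without heart cotyledon 1, L6 AT1G18540 (0.0305) and S17 AT3G10610 (0.0495) passed, beside 4.05% of all.

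S17 AT3G10610 was at 2.36 (SE 1.15, adjusted p = 0.253), with 3.2, 1116 and 4571 on the heart arrays against 1345, 1596 and 2495. The torpedo values lay inside the much wider heart range. S24 AT3G04920 was lower on the torpedo apical and basal arrays without overlap, at -1.90 (SE 0.79, adjusted p = 0.187). It had 716, 959 and 6716 on the heart arrays against 200.1, 331 and 553. S20 AT3G47370 was the member higher without overlap, with 33.4, 1124 and 2758 against 3226, 3788 and 5275 and a log2 difference of 2.19. The shared L6 probe set was at 2.32, S24 AT5G28060 at -0.44 and S12 AT1G15930 at -0.31.

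The same 6 torpedo arrays were also compared with the 6 globular arrays, a comparison added after the data were seen. It shares its torpedo arrays with the comparison above and its globular arrays with the one before. 28 of 36 members had higher values on the torpedo apical and basal arrays, with a median log2 difference of 0.62 beside -0.45 for all probe sets. By limma none passed, while 13.2% of all probe sets did (2751 of 20890). At an unadjusted p under 0.05 there were 6 members, beside 31.3% of all. 2 were higher without overlap, beside 1.96% of all, and 2 lower, beside 7.04%.

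S11 AT4G30800 had lowest, median and highest values of 1066, 1362 and 7864 on the globular and 172, 578 and 888 on the torpedo apical and basal arrays. All apical and basal values lay below all globular ones. Torpedo cotyledon 1, at 1294, lay inside the globular range. Torpedo cotyledon 3, at 241, and the root and meristem arrays, at 148 to 585, lay below it. The log2 difference of S11 AT4G30800 was -2.07 (SE 0.77, adjusted p = 0.0696). It passed in limma without globular basal 2 (adjusted p = 0.0496), beside 11.8% of all probe sets. S4 AT5G58420 had 8038, 14596 and 21761 against 2264, 2698 and 2888, at -2.39 (SE 1.04, adjusted p = 0.118). Its 6 apical and basal values were close together, and all of them lay below every globular value. Torpedo cotyledon 1, at 14720.5, lay inside the globular range. Torpedo cotyledon 3, at 1325, and the root and meristem arrays, at 58.6 to 4387, lay below it. On the heart arrays S4 AT5G58420 had 108, 5334 and 9786. Its heart median lay between those of the globular and the torpedo apical and basal arrays.

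S14 AT3G52580 and S14 AT3G11510 were the members higher without overlap. S14 AT3G52580 had 64.1, 297 and 642 against 789.8, 1103 and 1413, at 1.96 (SE 0.76, adjusted p = 0.0809). S14 AT3G11510 had 286, 603 and 1393 against 1688, 1976 and 3001, at 1.82 (SE 0.68, adjusted p = 0.0703). In both the lowest apical or basal value lay just above the highest globular one. Not all other torpedo captures lay above the globular ranges. S14 AT3G52580 read 151 and 1396.5 on the cotyledon, 5.5 and 179 on the root and 42.3, 173 and 121 on the meristem arrays. S14 AT3G11510 read 3498 and 2145, 189 and 542, and 180, 379 and 1479 on them. L6 AT1G18540 was at 2.09 and the shared S3 probe set at 1.99, with 90.8, 214 and 465 against 363, 996 and 1322. S24 AT5G28060, at -0.86, had the next lowest difference after S4 AT5G58420 and S11 AT4G30800. Fitted on only the 4 groups compared, 7 members passed in limma, beside 22.7% of all probe sets, namely the 6 probe sets drawn by stage and tissue and the shared L6 probe set (adjusted p from 0.00460 to 0.0297). The same 7 passed with array weights, beside 37.3% of all. Without the 4 arrays of low correlation 4 of them passed (19.4% of all), and S14 AT3G11510 passed after median centring (7.33% of all) and without an intensity trend (13.3% of all).

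**Figure D4:**
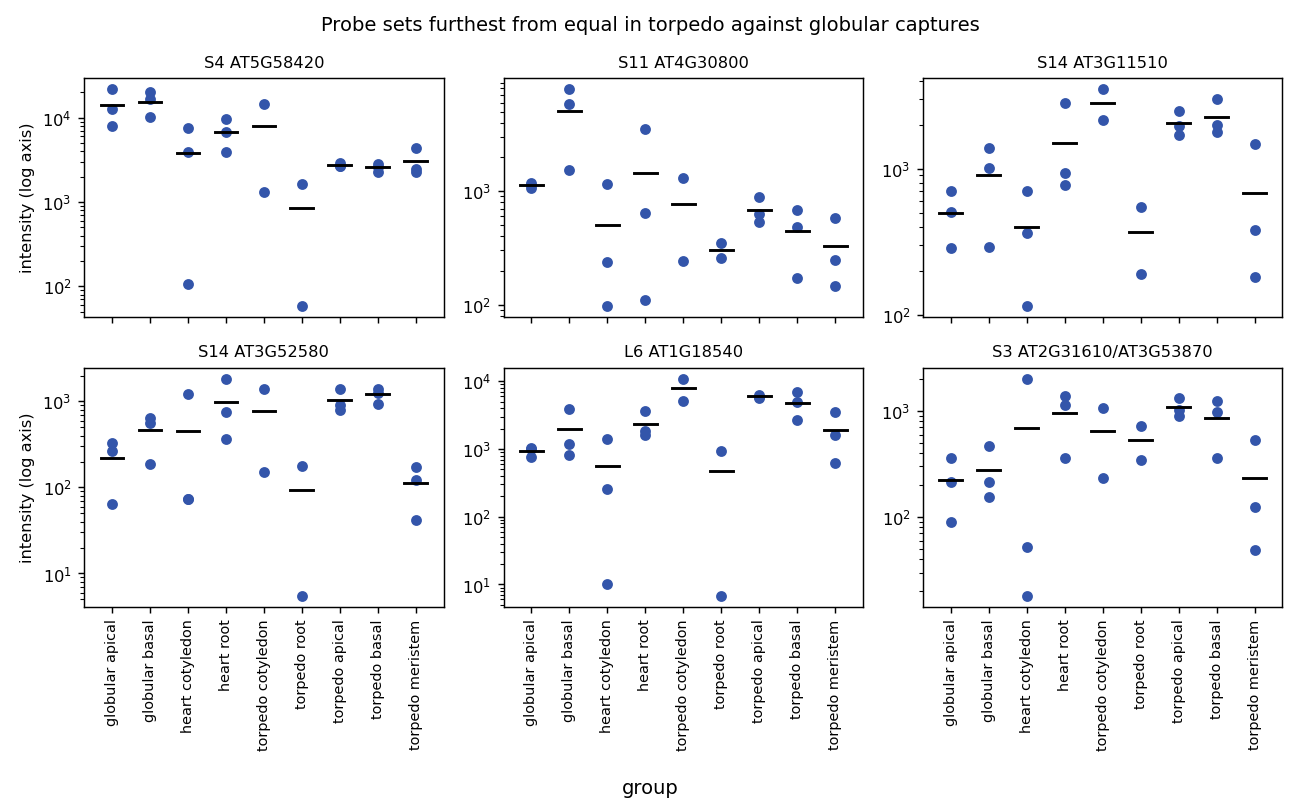
Each panel shows the intensity of a probe set on every array (blue points, log axis) with the mean of each group (black bars), for the 6 members with the largest absolute difference between torpedo apical and basal and globular arrays, chosen after their values were seen. S4 AT5G58420 and S11 AT4G30800 have their torpedo apical and basal points below all globular points, and both S14 panels have them above.

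Markers of other seed tissues had lower values on the torpedo apical and basal than on the globular arrays. In this comparison 9.87% of all probe sets passed as lower, and the median of all was -0.45. BAN, a seed coat gene of tannin synthesis, read 445, 168 and 13.7 on the globular apical and 10.3, 91.8 and 8.5 on the globular basal arrays, against 1.72 to 16.3 on the torpedo apical and basal arrays (log2 difference -2.05, adjusted p = 0.0314 in limma). DELTA-VPE, a protease of the inner seed coat, was also lower on these torpedo arrays (-1.84, adjusted p = 0.0432 in limma). AGL62, an endosperm gene, was at -1.52 (adjusted p = 0.0534 in limma). AGL62 was dim on both sets of arrays, at 27.8 to 88.8 on the globular and 1.44 to 21.3 on the torpedo apical and basal arrays. BBM, an embryo gene, was at -1.04. Only 2 of the 6 listed seed coat genes, 1 of 7 endosperm genes and 1 of 8 embryo genes had a probe set of their own named here. AGL62, BAN and BBM fell to 1.44, 1.72 and 1.11 on single torpedo apical or basal arrays. The part of these markers in the stage differences of the ribosomal protein genes was not tested.

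Small and large subunit probe sets were compared as means of log2 values within an array, and only the change of that difference between arrays is meaningful. On the globular arrays the small minus large difference was -0.03, -0.65 and -0.53 in the apical and -0.20, -0.01 and -1.27 in the basal part. On the heart arrays it was -0.63, -0.75 and -0.42 at the cotyledon and -0.64, -0.60 and 0.02 at the root pole. On the torpedo apical arrays it was -1.11, -1.21 and -0.97, and on the basal arrays -1.18, -0.45 and -1.17. The torpedo apical values lay below all heart values and below all globular values but that of globular basal 3, while the basal group overlapped both. The torpedo cotyledon arrays were at -1.26 and -1.01, the root arrays at 0.30 and -1.09 and the meristem arrays at -1.08, -0.59 and -1.20.

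Written as the mean of small minus the mean of large subunit differences, this gave -0.51 for torpedo against heart and -0.57 for torpedo against globular. It gave 0.09, -0.19 and -0.16 for the poles at the globular, heart and torpedo (apical and basal) stages, 0.06 for the meristem and -0.05 for heart against globular. For torpedo cotyledon against root it was -0.74, and -0.05 without torpedo root 1. The spread of the array values within groups was 0.44 (pooled SD). The large subunit is represented by 5 probe sets, of which L6 and L29 were the most variable, so the figure rests on few genes, and no test was run on it. Medians of the small and large subunit differences had the opposite order. They were 0.92 and 0.71 for torpedo against heart, and 0.68 and 0.54 for torpedo against globular. The 79 further large subunit probe sets described below had medians of 0.87 and 0.29 in these comparisons.

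**Figure D5:**
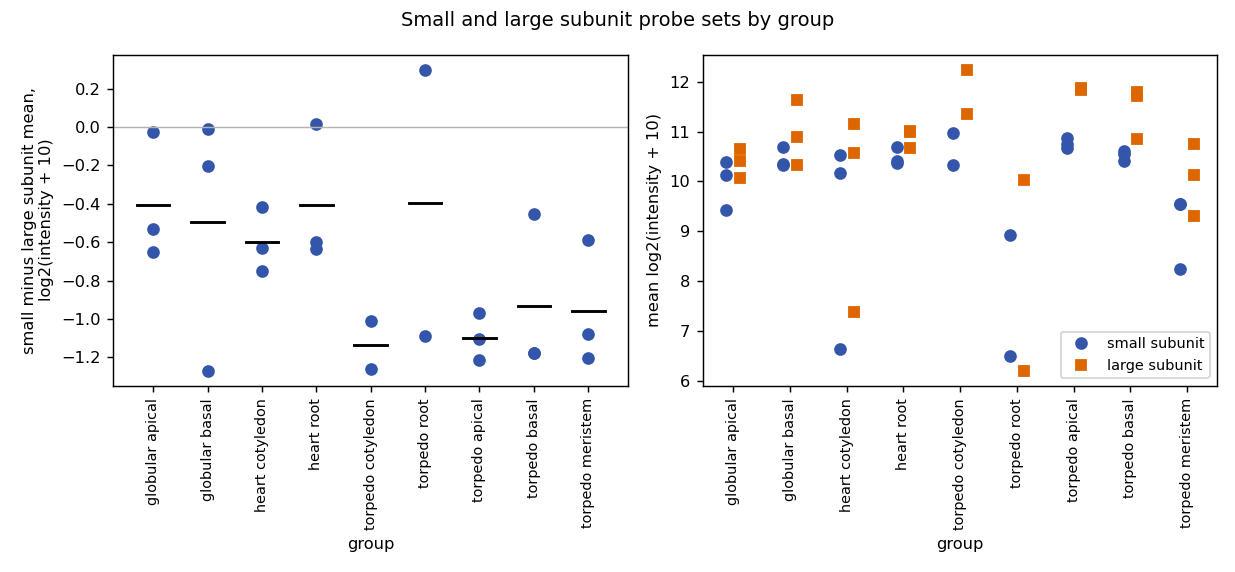
The left plot gives the mean log2(intensity + 10) of 31 small subunit probe sets minus that of 5 large subunit probe sets on each array, with group means as black bars, and the right plot gives the means themselves (blue circles small, orange squares large). Torpedo cotyledon and apical captures have the lowest group means on the left (-1.14 and -1.10), and globular apical, torpedo root and heart root the highest (-0.40, -0.40 and -0.41).

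Genes of a family encode nearly the same protein, so the difference between their probe sets was used to see whether they keep in step. It is less certain where a probe set of the pair is dim. The 4 pairs with the widest range of group means came from S19, S9, L6 and S20. The log2 difference of S19 AT3G02080 minus S19 AT5G15520 had group means from -2.51 in torpedo root to 3.79 in heart root. On the torpedo apical arrays it was 2.33, 2.65 and 2.37, and on the torpedo meristem arrays 2.64, 1.27 and -3.10. The apical arrays were alike and the meristem arrays were not.

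For S9 AT5G15200 minus S9 AT5G39850 the group means ran from 1.82 in torpedo root to 7.58 in torpedo cotyledon. S9 AT5G39850 read 38.3 and 16 on the torpedo cotyledon arrays, near the low end of its own range, so the size of that group mean rests on dim signals. For L6 AT1G18540 minus the shared L6 probe set they ran from -2.23 in torpedo root to 3.30 in torpedo cotyledon, with -3.30 and -1.17 and 3.95 and 2.66 on the single arrays. The ranges of the other 7 groups lay between -0.68 and 1.15 in their means. For the shared S20 probe set minus S20 AT3G47370 they ran from -1.09 in torpedo apical to 4.26 in torpedo cotyledon. All 4 ranges thus have torpedo cotyledon or torpedo root, the groups with 2 arrays, at an end.

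A pair outside that rule, named after its values were seen, was S4. The log2 difference of S4 AT5G07090 minus S4 AT5G58420 was -4.61, -5.02 and -5.07 on the globular apical and -4.99, -4.87 and -4.74 on the globular basal arrays. It was -1.68, -2.35 and -1.50 on the torpedo apical and -1.91, -2.85 and -2.10 on the torpedo basal arrays. The globular arrays did not overlap with the torpedo apical and basal arrays. On the heart arrays the difference was -2.13, -0.44 and -1.75 at the cotyledon and -2.39, -4.77 and -2.63 at the root pole. The heart values thus reached into both ranges. S4 AT5G07090 itself had 319, 445 and 736 on the globular and 352, 628 and 948 on the torpedo apical and basal arrays, which overlap, whereas those of S4 AT5G58420 do not. S4 AT2G17360 minus S4 AT5G58420, which shares that probe set, did not overlap either. It was -7.50 to -4.43 on the globular and -4.02 to -2.64 on the torpedo apical and basal arrays. How many other pairs did not overlap was not counted. Of all pairs, L4 AT3G09630 and L4 AT5G02870 kept the most even distance, with group means from -1.25 to -0.10.

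Other genes of the translation apparatus were read from lists. Of 119 further large subunit loci, 79 had a probe set. Their median log2 differences were -0.41 between the globular poles, -0.39 between the heart poles, 2.23 between the torpedo cotyledon and root captures, 0.00 between the apical and basal parts, -1.47 for the meristem and -0.61 for heart against globular. For torpedo against heart the median was 0.87 and 2 of the 79 rose, beside 0.862% of all probe sets that rose and 0.402% that fell. They were AT2G27710 (3.70, adjusted p = 0.00113 in limma) and AT3G55170 (3.09, adjusted p = 0.0339). For torpedo against globular the median was 0.29, with 6 of the 79 risen and 1 fallen, beside 3.3% and 9.87% of all probe sets. Of these, AT2G27710 rose by 3.09 (adjusted p = 0.00218), AT2G34480 by 3.43 (0.0101), and AT3G28500 fell by 2.61 (0.0142).

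The other lists were small. 5 of 20 nuclear genes of plastid ribosomal proteins, 2 of 9 ribosome biogenesis genes and 3 of 15 translation factors had a probe set. In torpedo against globular their medians were 1.88, 1.62 and 0.03, and AT2G43030 of the plastid list rose by 2.73 (adjusted p = 0.0131 in limma). No other member of these 3 lists passed in any of the 8 comparisons.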

How the data were processed

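Total RNA of laser-dissected Arabidopsis embryo tissues was read on 27 ATH1 arrays. Per the submitters' processing notes, the deposited values are MAS5 intensities, on a linear scale. The MAS5 version is not given in the sources used here. Precision is limited by the number of arrays. Groups follow the titles. 2 arrays whose title and tissue description disagree entered no comparison.

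From these values, a pseudocount of 10 was added before log2, without the 64 control probe sets. A probe set was tested if it reached an intensity of 50 on at least 2 of 25 arrays, which left 20890. The fit used limma 3.58.1 under R 4.3.3, with a mean for each group and an intensity trend in eBayes, 2-sided, with Benjamini-Hochberg adjustment over all probe sets tested. SE stands for the fit's standard error. The fit was tested on simulated data.

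Probe sets were named from a platform table and NCBI RefSeq TAIR10.1 names. Of the 22746 probe sets, 13513 had 1 gene, 503 several and 8730 none. The values name no genome build, and promoters and proteins were not used here.

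Members and lists were chosen with earlier results of these data known. Named by rule were the 3 members with the highest and the 3 with the lowest difference in each comparison, members past the threshold, the 5 highest and 5 lowest in mean level (given by their own ranges, since levels of different probe sets are not compared), the 3 most and 3 least variable over groups, and 4 paralog pairs. Members without overlap and other paralogs were named after their values were seen. The other settings tried were median centring, quantile normalization, filters and pseudocounts of other sizes, no trend, array weights, only the groups compared, the replicate block, the 2 arrays added, probe sets of 1 locus and each array left out. Torpedo against globular and a fit without arrays of a median correlation under 0.4 were added after the data were seen.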

Additional observations from a re-analysis of the deposited data

How the results depend on the processing

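The counts of 0 members held under all alternatives for globular and torpedo (apical and basal) poles and for heart against globular. Elsewhere members passed under single settings. Heart poles had 0 to 1 with an array left out. Torpedo cotyledon against root had 2 without a trend and 1 with the 2 further arrays added by title. The meristem comparison had 1 with array weights and with only the groups compared, and 0 to 1 with an array left out. Torpedo against heart had 4 with array weights and 0 to 2 with an array left out. Torpedo against globular had 7 with array weights, 7 with only the groups compared, 4 without the arrays of low correlation, 1 with median centring, 1 without a trend, and 0 to 1 with an array left out. Over all 9 groups 5 passed with array weights, 2 without a trend, and 0 to 4 with an array left out, while the count over all probe sets was 262 as reported, 3788 with array weights and 54 to 649 with an array left out. The members' median for the heart poles was -2.02 to -0.12 with an array left out and -0.12 without the arrays of low correlation. For torpedo cotyledon against root it was 2.06 after quantile normalization, 1.90 with the 2 arrays added by tissue description, and 1.85 to 4.56 with an array left out; small minus large was -1.56 with probe sets of 1 locus only and -1.43 to -0.0462 with an array left out. The cause was not tested. Medians for heart against globular changed sign with an array left out (-0.72 to 0.38). Other scaling shifts all probe sets: for torpedo against globular their median was -0.45 as reported, -0.12 after quantile normalization and 0.10 after median centring, with members at 0.62, 0.66 and 1.17.

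With the replicate number as a block, the median of members was -0.56 for the globular, -1.30 for the heart, 3.23 and 0.29 for the torpedo poles and -0.30 for heart against globular, and 0 members passed in each. Same-numbered arrays were correlated by their deviations from group means, so the values are not those between whole arrays given above. They were -0.09 to 0.06 (globular), 0.07 to 0.38 (heart), 0.09 (torpedo cotyledon and root) and -0.08 to 0.06 (torpedo apical and basal). With 2 or 3 arrays in a group, these correlations cannot decide whether the numbers pair the arrays. No paired analysis was possible for the other comparisons because the apical and basal torpedo arrays are numbered 4 to 6. Averaging the probe sets of a locus was not run, since each measured locus has 1 probe set. Without the arrays of low correlation no torpedo root array is left.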

Other observations

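The 2 arrays outside every comparison also read the ribosomal protein genes. On the array titled torpedo cotyledon and described as root, the median intensity of the 36 probe sets was 1258 (98.1 percentile). On the array titled torpedo root and described as cotyledon it was 456 (97.9 percentile), and that array's 99th percentile was 968. S3 AT5G35530 read 7371 and 3299 on them, and L29 AT3G06700 read 1232 and 1408.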
